A study of Mus musculus with 6 samples.

Results

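The 10 genes described here make and sense prostaglandins and leukotrienes, and their transcripts were measured in macrophages cultured from the fetal liver of wild-type and Ahrr-deficient mice. They were chosen by gene symbol: the cyclooxygenases Ptgs1 and Ptgs2, the prostaglandin E synthase Ptges, the leukotriene enzymes and helper Alox5, Alox5ap, Ltc4s and Lta4h, and the prostanoid receptors Ptgir, Ptger2 and Ptger4. Each symbol matched 1 row, so all 10 of 10 were found among 16111 identified genes and none was absent. Ahrr encodes the aryl hydrocarbon receptor repressor, which opposes the aryl hydrocarbon receptor (AhR), a transcription factor switched on by small molecules. The wild-type group held 3 libraries and the Ahrr-deficient group (Ahrr -/-) held 3, and both carried the strain label C57BL/6 RCC. Each library had its own number as its description. In both groups cells were taken from E13.5 (embryonic day) fetuses and grown for 5 weeks in RPMI medium with serum and 2% GM-CSF, a growth factor for macrophages, and non-adherent cells were sequenced without any further treatment named in the labels. The kind of Ahrr allele is not given in the sources used here, and long GM-CSF culture limits the cells as a model of macrophages in the fetal liver.

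Both families of mediators are made from arachidonic acid, which phospholipases A2 release from membranes. Cyclooxygenases turn it into prostaglandin H, from which terminal synthases make prostaglandins E and D, prostacyclin or thromboxane. Alternatively, 5-lipoxygenase with its helper protein FLAP makes leukotriene A, which a hydrolase turns into leukotriene B and a synthase joins to glutathione to give leukotriene C, the first of the cysteinyl leukotrienes. Macrophages are a major source of both families, whose products act through receptors on the surface of the same and of other cells.

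Of the 10 genes, 9 had enough counts to be tested, and 5 of these 9 passed edgeR's test between genotypes (adjusted p under 0.05). Ptgs1, Alox5, Lta4h and Ptgir rose in Ahrr-deficient cells and Ptges fell. The tested background was 2232 of 11408 genes, or 19.6%, with 9.62% higher and 9.95% lower. The median log2 fold change was 0.38 over the 9 tested members and 0.01 over all tested genes, and the median size of the change was 0.40 and 0.22. Without wild-type replicate 1 the member count was 3. In bulk samples, fewer cells of a type and less RNA per cell cannot be told apart.

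Library totals lay between 3556106 and 41668336 counts, an 11.7-fold range, and the shallowest library was Ahrr-deficient replicate 1. Levels are given as CPM, the share of a library's counts on the usual scale for sequencing libraries. The floor of 3 counts was 0.835 CPM in that library and 0.0692 CPM in the deepest one, Ahrr-deficient replicate 2, by counting error only. Wild-type replicate 2 stood apart in that 1 ribosomal RNA gene, CT010467.1, took 5.28% of its counts, against at most 0.0679% in the other 5 libraries. Ahrr itself fell, from 4.60, 4.74 and 5.21 CPM in the wild-type libraries to 2.23, 2.47 and 1.18 CPM in the Ahrr-deficient ones (log2 fold change -1.21, edgeR adjusted p 0.0151). Its reads did not vanish in any library. The call for Ahrr was lost without wild-type replicate 1 (adjusted p 0.0631) and without wild-type replicate 3 (adjusted p 0.0502), in a range of 0.00548 to 0.0631 over 15 alternatives. CPM values here use the TMM-scaled library total, and values of a group are given in the order of replicates 1, 2 and 3.

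All 10 macrophage markers on a list of 10 were detected, and 3 passed the threshold: Itgax rose, and Cd14 and Csf1r fell. Their summed level was 24852 to 27245 CPM in the wild-type libraries, against 15274 to 22850 CPM in the Ahrr-deficient ones, most of it Lyz2. Of 10 mast cell markers, 9 had no row (Cpa3, Kit, Tpsb2, Tpsab1, Mcpt4, Cma1, Ms4a2, Fcer1a and Gata2), and every feature with at least 10 counts in all has one. The tenth, Hdc, drew 0 counts from each wild-type library and 1, 10 and 2 counts from the Ahrr-deficient ones, at most 0.278 CPM. Of 10 neutrophil markers, 6 had no row, among them Ly6g, Elane and Mpo, and the summed level was 13.1 to 26.1 CPM in the wild-type libraries, against 2.86 to 10.0 CPM in the Ahrr-deficient ones. The neutrophil sum was mostly Cxcr2, which fell (log2 difference -2.25, adjusted p 0.0158 by edgeR). None of the 5 eosinophil and basophil markers had a row, and 4 of 5 megakaryocyte markers, Pf4 among them, had none. The fifth, Itga2b, fell from 2.91 to 1.49 CPM (log2 difference -1.10, adjusted p 0.0147 by edgeR). The endothelial marker sum, nearly all of it Vwf, was 165 to 209 CPM in the wild-type libraries, against 218 to 308 CPM in the Ahrr-deficient ones. Tek had no row. Cdh5 drew 0, 1 and 0 counts from the wild-type libraries and 2, 9 and 0 counts from the Ahrr-deficient ones. Kdr drew 2, 1 and 1 counts, against 0, 8 and 0 counts. The calls for Csf1r, Cxcr2, Itga2b and Vwf, the last a rise, were each lost without Ahrr-deficient replicate 2 or 3, and all but that for Cxcr2 also without wild-type replicate 1 or 2. Erythroid and hepatocyte sums did not exceed 1.08 CPM in any library. Dendritic cell and fibroblast sums were at most 6.49 and 10.7 CPM. The part of the macrophage, neutrophil, megakaryocyte and endothelial marker levels in the results below was not tested.

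Nearly all cyclooxygenase transcripts in both genotypes came from Ptgs1, the form that most tissues make at a steady level, and they rose. Ptgs1 (ENSMUSG00000047250.13, chromosome 2, 36230426 to 36252272, plus strand, GRCm38) read 252, 216 and 281 CPM in the wild-type libraries, against 345, 399.9 and 452 CPM in the Ahrr-deficient ones. Every Ahrr-deficient library lay above every wild-type library, and the lowest of them was replicate 1. The mean rose from 249.9 ± 32.8 to 399 ± 53.6 CPM (SD, n = 3), which edgeR fitted as a log2 fold change of 0.68 with SE 0.13 at adjusted p 0.0103. Over 16 alternatives the adjusted p ran from 3.43e-05 to 0.0501, the latter without wild-type replicate 1, where the call was lost. An exon of Gm43621 overlaps 148 bases of Ptgs1 exons on the opposite strand, and whether counting used strand is not stated.

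Ptgs2 encodes the cyclooxygenase that inflammatory signals induce, and it was the member with the lowest level in both genotypes. It was at or under the floor of 3 counts in wild-type replicate 3 and in Ahrr-deficient replicates 1 and 3. Ptgs2 (ENSMUSG00000032487.8, chromosome 1, 150100031 to 150108227, plus strand) had 28, 9 and 3 counts in the wild-type libraries and 2, 8 and 2 counts in the Ahrr-deficient libraries. These were 1.27, 1.58 and 0.411 CPM against 0.557, 0.185 and 0.196 CPM, so the groups overlapped at wild-type replicate 3 and Ahrr-deficient replicate 1. Too few counts kept it out of the test. Pooled over libraries, 40 wild-type against 12 Ahrr-deficient counts gave a level 5.44-fold higher in wild-type (95% exact interval 2.80 to 11.4, counting error only, which leaves out the spread between libraries), and the means of the 3 libraries, 1.09 and 0.313 CPM, gave 3.48-fold. Without the filter on low counts its log2 fold change was -2.29 (edgeR adjusted p 0.0250), and DESeq2 gave no adjusted p for it. Of the fits with a library left out, Ptgs2 passed the filter only without wild-type replicate 3 or without Ahrr-deficient replicate 1. The edgeR adjusted p was then 0.0190 and 0.0099. These are the libraries at which the groups overlapped, so these values are no support for a fall.

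Ptges encodes the inducible microsomal synthase that makes prostaglandin E from the product of the cyclooxygenases, and it moved against Ptgs1. Ptges (ENSMUSG00000050737.13, chromosome 2, 30889471 to 30929863, minus strand) read 25.8, 26.2 and 27.2 CPM in the wild-type libraries, against 17.3, 14.8 and 16.4 CPM in the Ahrr-deficient ones. The wild-type libraries lay close together, and every Ahrr-deficient library lay below them. The mean fell from 26.4 ± 0.719 to 16.2 ± 1.23 CPM (SD, n = 3). The log2 difference was -0.73 with SE 0.10 and an edgeR adjusted p of 0.00345. It was the only tested member past the threshold in this direction, and it stayed past it in all 16 alternatives run.

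The 5′ flanks of the prostaglandin genes are shown because AhR and its repressor recognise sites with the core GCGTG and the receptors named below signal through cyclic AMP. The sequences are the 250 bases before the RefSeq start of each gene (GRCm38.p6), 5′ to 3′ along the gene, with every match to GCGTG, to the GC box GGGCGG and to the cAMP response core TGACGT in capitals, on either strand. For Ptges this start lies inside the longer GENCODE gene model whose coordinates are given above, so that the window is internal to that model; for the other genes shown both starts are the same.
Ptges promoter, chr2:30903298-30903547, minus strand: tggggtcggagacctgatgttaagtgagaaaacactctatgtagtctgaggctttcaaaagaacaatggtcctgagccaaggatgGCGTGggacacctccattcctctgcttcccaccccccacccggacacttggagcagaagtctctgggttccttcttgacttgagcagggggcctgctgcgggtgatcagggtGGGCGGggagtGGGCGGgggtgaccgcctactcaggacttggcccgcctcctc
Ptgs2 promoter, chr1:150099781-150100030, plus strand: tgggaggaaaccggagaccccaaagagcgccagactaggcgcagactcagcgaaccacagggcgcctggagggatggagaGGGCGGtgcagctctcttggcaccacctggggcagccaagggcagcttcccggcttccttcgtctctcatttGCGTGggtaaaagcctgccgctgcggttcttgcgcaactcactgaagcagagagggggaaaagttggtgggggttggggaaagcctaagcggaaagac
Ptgs1 promoter, chr2:36230176-36230425, plus strand: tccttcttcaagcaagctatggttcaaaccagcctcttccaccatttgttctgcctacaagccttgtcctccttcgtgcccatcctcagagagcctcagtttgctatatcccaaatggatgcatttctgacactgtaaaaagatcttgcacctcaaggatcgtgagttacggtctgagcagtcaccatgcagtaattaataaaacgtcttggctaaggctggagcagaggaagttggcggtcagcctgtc
Ptgir promoter, chr7:16906240-16906489, plus strand: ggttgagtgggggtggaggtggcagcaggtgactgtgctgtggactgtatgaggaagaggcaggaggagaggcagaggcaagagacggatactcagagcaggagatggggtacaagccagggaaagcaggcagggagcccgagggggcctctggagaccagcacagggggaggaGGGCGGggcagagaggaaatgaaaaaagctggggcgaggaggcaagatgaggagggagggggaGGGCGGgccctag
The reference table held 9 of the 10 members, all but Alox5ap. GCGTG was in 2 of the 9, in Ptges from 165 to 161 bases and in Ptgs2 from 98 to 94 bases before the start, against 28.2% of 32851 promoters of the same length. Both matches also had the longer form TNGCGTG, which contains the core and which 4.10% of promoters held. The GC box was in 5 of the 9 (32.7% of all promoters), with matches in Ptges, Ptgs2, Alox5, Ptgir and Ptger4, and TGACGT was in 0 of the 9 (6.47%). Matches to GCGTG did not overlap those to the GC box. A match is a description of letters in this window and was not tested for binding.

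**Figure D1:**
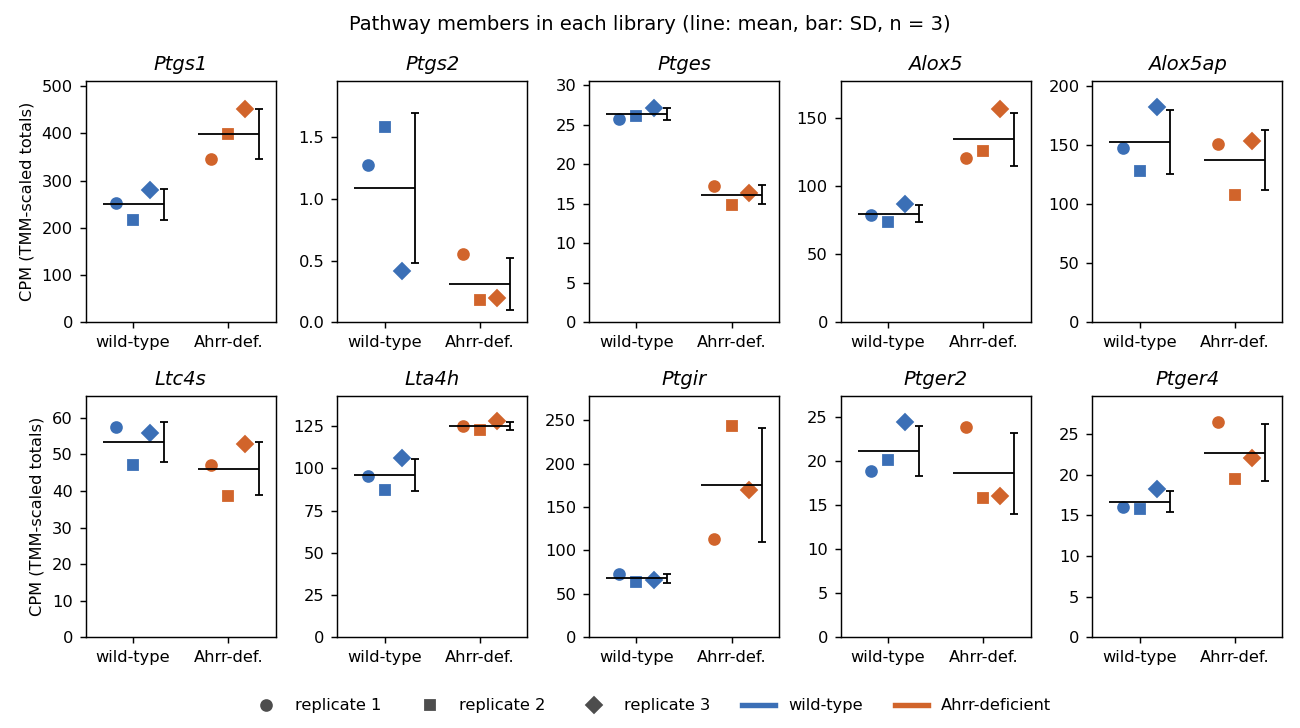
Level of each member in CPM (vertical axis from 0, TMM-scaled library totals) in the 3 wild-type and 3 Ahrr-deficient libraries; marker shape gives the replicate number, lines the mean and bars the SD. Ptgs1, Alox5, Lta4h, Ptgir and Ptger4 are higher and Ptges is lower in every Ahrr-deficient library, while the groups overlap for Ptgs2, Alox5ap, Ltc4s and Ptger2.

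In the leukotriene branch the lipoxygenase and the hydrolase rose, and the helper protein and the leukotriene C synthase did not pass the test. Alox5 (ENSMUSG00000025701.12, chromosome 6, 116410077 to 116461178, minus strand) encodes 5-lipoxygenase, which commits arachidonic acid to leukotrienes. It read 78.7, 73.7 and 86.5 CPM in the wild-type libraries, against 121, 126 and 156 CPM in the Ahrr-deficient ones. The groups did not overlap. The mean rose from 79.6 ± 6.47 to 134 ± 19.4 CPM (SD, n = 3); the edgeR estimate was 0.76 in log2 units (SE 0.11, adjusted p 0.00448). Alox5 was past the threshold in all 16 alternatives run, with log2 fold changes from 0.62 to 0.83.

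Alox5ap (ENSMUSG00000060063.9, chromosome 5, 149264767 to 149288153, plus strand) encodes FLAP, the membrane protein that presents arachidonic acid to the lipoxygenase. It read 148, 128 and 182 CPM in the wild-type libraries, against 151, 108 and 154 CPM in the Ahrr-deficient ones, and the groups overlapped. The fitted log2 difference was -0.16 with SE 0.16 (edgeR adjusted p 0.505), with a 95% interval of -0.53 to 0.20 that is not adjusted for the number of genes. The interval does not reach the 0.76 of Alox5. In both groups replicate 2 was the lowest library for Alox5ap. Gm19719 shares 189 exonic bases on the opposite strand.

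Lta4h (ENSMUSG00000015889.8, chromosome 10, 93453411 to 93484875, plus strand) encodes the hydrolase that makes leukotriene B, an attractant of neutrophils. It read 95.3, 87.2 and 106 CPM in the wild-type libraries, against 125, 123 and 128 CPM in the Ahrr-deficient ones. The Ahrr-deficient libraries lay close together and above all wild-type libraries. The mean rose from 96.2 ± 9.42 to 125 ± 2.50 CPM (SD, n = 3), which edgeR fitted as a log2 fold change of 0.38 with SE 0.09 at adjusted p 0.0193. This call was lost with offsets for GC content (edgeR adjusted p 0.0517), and with these offsets and a replicate block (0.0601). It was also lost without wild-type replicate 1 (0.101), wild-type replicate 2 (0.0840), Ahrr-deficient replicate 2 (0.0524) or Ahrr-deficient replicate 3 (0.0660). Over 16 alternatives the adjusted p of Lta4h ran from 0.0107 to 0.101.

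Ltc4s (ENSMUSG00000020377.15, chromosome 11, 50236461 to 50238616, minus strand) encodes the synthase that joins leukotriene A to glutathione. It read 57.3, 47.0 and 55.8 CPM in the wild-type libraries, against 47.1, 38.5 and 52.7 CPM in the Ahrr-deficient ones. The groups overlapped, with replicate 2 lowest in each. For this gene edgeR gave -0.23 in log2 units, SE 0.13 and adjusted p 0.245, with a 95% interval of -0.54 to 0.07. Gm26542 shares 268 exonic bases on the opposite strand.

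Among the receptors, the one for prostacyclin had the largest fold change of the 9 tested members. Ptgir (ENSMUSG00000043017.9, chromosome 7, 16906490 to 16910905, plus strand) encodes the prostacyclin receptor, which raises cyclic AMP in the cell. It read 73.2, 63.5 and 66.2 CPM in the wild-type libraries, against 113, 244 and 169.6 CPM in the Ahrr-deficient ones. All Ahrr-deficient libraries lay above the wild-type libraries, but they spread widely, with replicate 1 lowest and replicate 2 highest. The mean rose from 67.7 ± 4.98 to 176 ± 65.4 CPM (SD, n = 3). The log2 difference was 1.39 with SE 0.23 and an edgeR adjusted p of 0.00594. Of all tested genes, 97.6% had a smaller change. The call held in all 16 alternatives, with log2 fold changes from 1.07 to 1.60.

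Ptger2 and Ptger4 encode the receptors for prostaglandin E that, like the prostacyclin receptor, raise cyclic AMP, and neither passed the test. Ptger4 (ENSMUSG00000039942.15, chromosome 15, 5206661 to 5244187, minus strand) read 16.1, 15.8 and 18.2 CPM in the wild-type libraries, against 26.5, 19.5 and 22.1 CPM in the Ahrr-deficient ones. The groups did not overlap, as was so for 6 of the 9 tested members and for 38.8% of all tested genes. The fitted log2 difference was 0.40 with SE 0.13 (edgeR adjusted p 0.0644), and the adjusted p ran from 0.0553 to 0.215 over the 16 alternatives. Ptger2 (ENSMUSG00000037759.6, chromosome 14, 44988195 to 45003820, plus strand) read 18.9, 20.2 and 24.4 CPM in the wild-type libraries, against 23.9, 15.9 and 16.0 CPM in the Ahrr-deficient ones. Ahrr-deficient replicate 1 lay among the wild-type libraries and the other two lay below them. For this gene edgeR gave -0.25 in log2 units, SE 0.17 and adjusted p 0.323, and without Ahrr-deficient replicate 1 it was -0.40 (edgeR adjusted p 0.0377, in a range of 0.0377 to 0.814 over 16 alternatives). Both genes share exonic bases with genes on the opposite strand, 1015 of them between Ptger4 and Gm15937 and 246 between Ptger2 and Gm17173.

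Levels of different genes were compared as CPM per kb of merged exon. This length joins the exons of all annotated transcripts of a gene, and which transcripts the cells made was not determined. The levels per kb, their order and the size of the ratios below depend on these lengths. In wild-type cells Alox5ap was the most abundant member at 108 ± 19.1 CPM per kb (SD, n = 3), followed by Ptgs1 at 64.3 ± 8.44 and Ltc4s at 52.7 ± 5.48. The ranges of Ptgs1 and Ltc4s overlapped, and so did those of Ptgir at 20.3 ± 1.49 and Alox5 at 19.4 ± 1.57 CPM per kb. Below these came Lta4h at 15.8 ± 1.54, Ptges at 6.71 ± 0.183, Ptger2 at 4.08 ± 0.556 and Ptger4 at 2.51 ± 0.202 CPM per kb, each apart from the next. Ptgs2 was last at 0.238 ± 0.132 CPM per kb. Of all identified genes, 97.7% had a lower wild-type level per kb than Alox5ap.

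In Ahrr-deficient cells Ptgs1 stood before Alox5ap and Ptgir before Ltc4s, and the order of the other 6 members was as in wild-type cells. Ptgs1 at 103 ± 13.8 and Alox5ap at 96.8 ± 17.9 CPM per kb (SD, n = 3) overlapped. Ptgir reached 52.6 ± 19.6 CPM per kb, a range that overlapped that of Ltc4s at 45.5 ± 7.06, which in turn overlapped that of Alox5 at 32.7 ± 4.74. Lta4h followed at 20.5 ± 0.409 CPM per kb. Ptges at 4.11 ± 0.313, Ptger2 at 3.58 ± 0.890 and Ptger4 at 3.41 ± 0.528 CPM per kb overlapped as neighbours, whereas they were apart in wild-type cells, and Ptgs2 was again last at 0.0683 ± 0.0462. The difference in order itself was not tested.

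**Figure D2:**
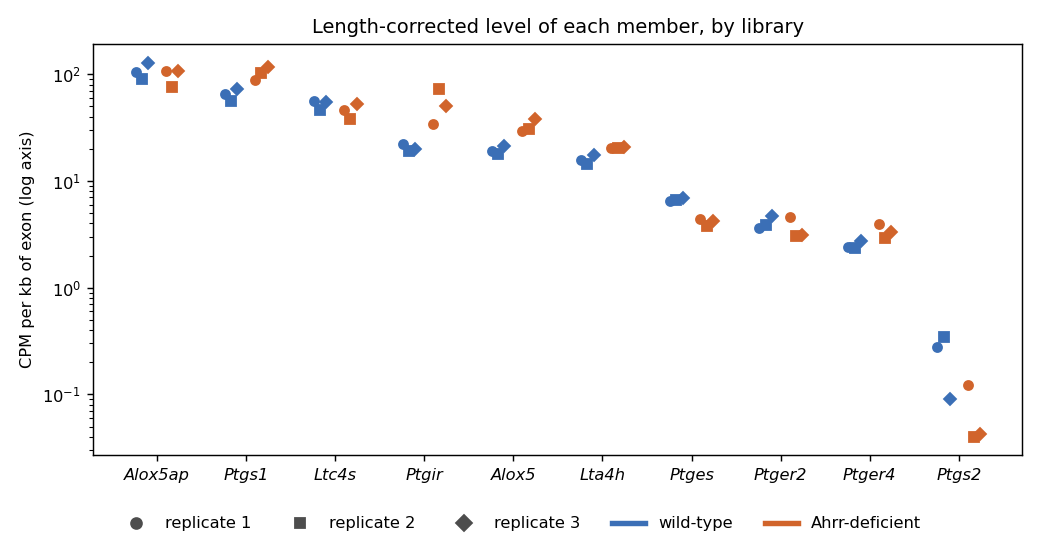
Level of each member per kb of exon (log axis) in each library, ordered by the wild-type mean; marker shape gives the replicate number. Alox5ap and Ptgs1 are at the top in both genotypes, Ptgs2 is lowest in both, and Ptgir stands between 34.0 and 73.1 CPM per kb in Ahrr-deficient libraries against 19.1 to 22.0 in wild-type.

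Ratios between members within a library do not depend on how libraries are scaled, and they are given as a description chosen after the values were seen. The ratio of Ptgs1 to Ptges per kb was 9.92, 8.35 and 10.5 in wild-type and 20.2, 27.3 and 27.9 in Ahrr-deficient replicates 1, 2 and 3. More cyclooxygenase transcript thus stood beside each transcript of the prostaglandin E synthase in every Ahrr-deficient library. The ratio of Alox5 to its helper Alox5ap was 0.184, 0.199 and 0.164 in wild-type and 0.277, 0.402 and 0.352 in Ahrr-deficient libraries. The ratio of Lta4h to Ltc4s, the enzymes that compete for leukotriene A, was 0.276, 0.308 and 0.316 in wild-type and 0.440, 0.530 and 0.403 in Ahrr-deficient libraries. The groups did not overlap for these ratios. Of all tested genes taken singly, 38.8% did not overlap either, and the share over other gene pairs was not computed. For Ptgs1 to Ptges the separation follows from the single genes, since Ptgs1 was higher and Ptges lower in every Ahrr-deficient library. The ratio of Ptger4 to Ptger2 was 0.664, 0.611 and 0.584 against 0.863, 0.959 and 1.08, again without overlap. That of Ptgir to Ptger4 overlapped, since Ahrr-deficient replicate 1 at 8.54 lay within the wild-type range of 7.24 to 9.08, below replicates 2 and 3 at 24.9 and 15.3.

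**Figure D3:**
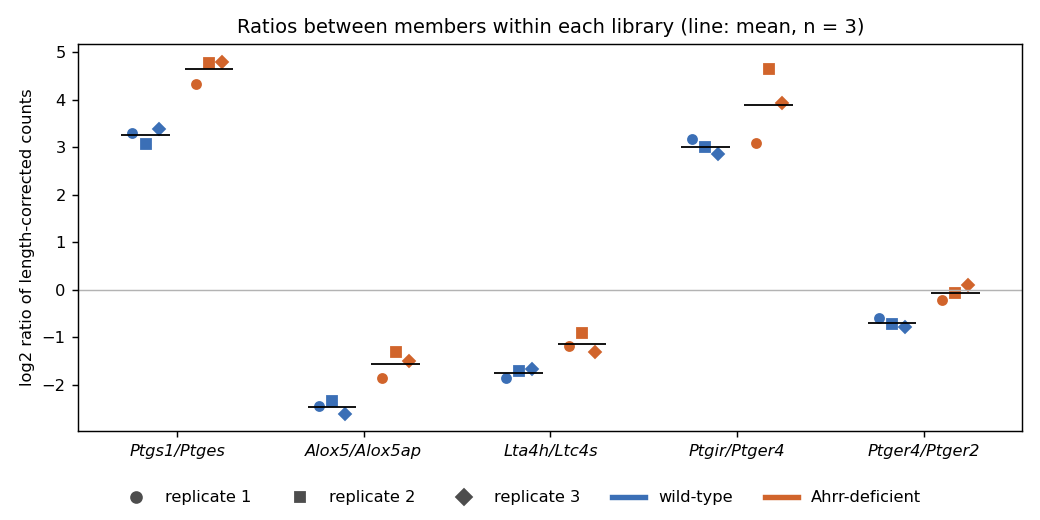
Log2 ratio of length-corrected counts for 5 pairs of members in each library; lines are group means and marker shape gives the replicate number. The Ahrr-deficient libraries lie above all wild-type libraries for every pair except Ptgir/Ptger4, where replicate 1 lies among them.

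The other genes of the pathway were taken from a list of 46, of which 30 had at least 1 row and 22 were tested. Of the 22 rows, 7 were higher and 4 were lower in Ahrr-deficient cells at an edgeR adjusted p under 0.05, against the background of 9.62% and 9.95%. The 7 include Slco2a1, Ptgis and Ltb4r2, which passed the filter on low counts only through the Ahrr-deficient libraries, where they were higher. Their calls are no support for a rise of the pathway. Without the filter Slco2a1 kept its call (edgeR adjusted p 0.00610), and Ptgis (0.0534) and Ltb4r2 (0.0516) lost theirs. Their median log2 fold change was -0.08. Without Ahrr-deficient replicate 1 the number past the threshold was 14, and without any single one of the other libraries it was 5 to 7.

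At the start of the pathway, 1 of 3 tested phospholipases A2 rose. This was Pla2g4a, the cytosolic phospholipase that frees arachidonic acid for both branches, with 30.8, 31.1 and 30.3 CPM in the wild-type libraries, against 42.6, 51.7 and 41.5 CPM in the Ahrr-deficient ones. The fitted log2 difference was 0.57 with SE 0.11 (edgeR adjusted p 0.00915), and the adjusted p ran from 0.00170 to 0.0522 over 16 alternatives, the latter without wild-type replicate 1, where the call was lost. Among 5 other terminal prostanoid synthases, Ptgis rose and Hpgds fell. Hpgds, the synthase of prostaglandin D in blood cells, read 24.2, 19.5 and 23.5 CPM in the wild-type libraries, against 8.07, 3.58 and 3.44 CPM in the Ahrr-deficient ones. The log2 difference of -2.45 (SE 0.24, adjusted p 0.00110 by edgeR) was the largest of the tested pathway genes, and it held in all 16 alternatives.

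Ptgis encodes prostacyclin synthase, whose product is the ligand of the receptor that Ptgir encodes. It drew 19, 3 and 1 counts from the wild-type libraries, against 5, 69 and 19 counts from the Ahrr-deficient ones; the edgeR estimate was 1.37 in log2 units (SE 0.40, adjusted p 0.0444). This rests on few counts: 2 wild-type libraries were at or under the floor, and the call was kept in 5 of the 14 alternatives that gave a value, with adjusted p from 0.0337 to 0.134 and log2 fold changes from 1.07 to 2.38, the highest without wild-type replicate 1. It was lost in 5 of the 6 fits with a library left out, the exception being Ahrr-deficient replicate 1. Tbxas1, the thromboxane synthase, was the best expressed of these synthases in CPM, at 529 ± 35.6 in wild-type and 516 ± 48.5 CPM in Ahrr-deficient cells (SD, n = 3), and its log2 fold change was -0.04 (edgeR adjusted p 0.837). None of the 6 other lipoxygenases had enough counts for a test, and 3 of them had no row.

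Of 7 tested rows for breakdown and conversion, 1 was higher and 2 were lower. Ptgr1, which inactivates prostaglandins and leukotriene B, rose from 28.4 ± 3.01 to 43.9 ± 6.24 CPM (SD, n = 3), which edgeR fitted as a log2 fold change of 0.63 with SE 0.13 at adjusted p 0.0119. Both genes that fell act on cysteinyl leukotrienes. Ggt5, which removes the glutamyl group of leukotriene C, fell from 4.80 ± 1.33 to 2.10 ± 0.904 CPM (SD, n = 3), with a log2 fold change of -1.47 and an edgeR adjusted p of 0.0171. The Ggt5 call was kept in 8 of 15 alternatives; it was lost without wild-type replicate 1 or 2 or Ahrr-deficient replicate 2 or 3 (adjusted p 0.0543 to 0.106), and after thinning (0.0568). Dpep2 (ENSMUSG00000053687.15), a dipeptidase for the next step, fell from 39.9 ± 1.92 to 22.6 ± 5.91 CPM (SD, n = 3), with a log2 fold change of -0.90 and an edgeR adjusted p of 0.00721. The Dpep2 value is uncertain, since a second gene model of that symbol shares 1585 exonic bases with it on the same strand.

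In transport, 2 of 3 tested genes rose and 0 fell. Slco2a1, the prostaglandin transporter, read 1.09, 0.878 and 0.549 CPM in the wild-type libraries, against 1.95, 4.75 and 3.34 CPM in the Ahrr-deficient ones. The log2 difference was 2.06 with SE 0.35 and an edgeR adjusted p of 0.00658. The call for Slco2a1 held in all 14 alternatives that gave a value. The endothelial marker Vwf, given above, was also higher in the Ahrr-deficient libraries. The other endothelial markers on the list, Cdh5 and Kdr, had at most 9 counts in any library, and Tek had no row. The part of these marker levels in the Slco2a1 and Ptgis values was not tested. Abcc1, an exporter of leukotriene C, rose by 0.34 in log2 units (adjusted p 0.0451 by edgeR) and kept its call in 4 of 16 alternatives. Each of the libraries other than Ahrr-deficient replicate 1 ended the Abcc1 call when left out (adjusted p 0.0823 to 0.166).

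Of 4 tested other receptors, 2 rose and 1 fell. Cysltr1, a receptor for cysteinyl leukotrienes, rose from 22.9 ± 0.562 to 31.0 ± 2.16 CPM (SD, n = 3), at a log2 difference of 0.43 and adjusted p 0.0176 by edgeR, and kept its call in 8 of 16 alternatives. Gpr17, a receptor related to those for cysteinyl leukotrienes, fell from 4.75 ± 0.817 to 1.37 ± 0.428 CPM (SD, n = 3), at a log2 difference of -1.71 and adjusted p 0.00526 by edgeR, and was called in all 14 alternatives that gave a value. Ahrr-deficient replicates 1 and 3 held 6 and 9 counts of Gpr17. Ltb4r2, a receptor for leukotriene B, drew 8, 5 and 5 counts from the wild-type libraries, against 7, 59 and 12 counts from the Ahrr-deficient ones. Its log2 fold change was 1.36 (edgeR adjusted p 0.0383), and it kept its call in 5 of 13 alternatives. Both calls, for Cysltr1 and for Ltb4r2, were lost without wild-type replicate 1, 2 or 3 or Ahrr-deficient replicate 3, at adjusted p from 0.0543 to 0.0988 and from 0.0604 to 0.286; without Ahrr-deficient replicate 2 Ltb4r2 had too few counts for a test.

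**Figure D4:**
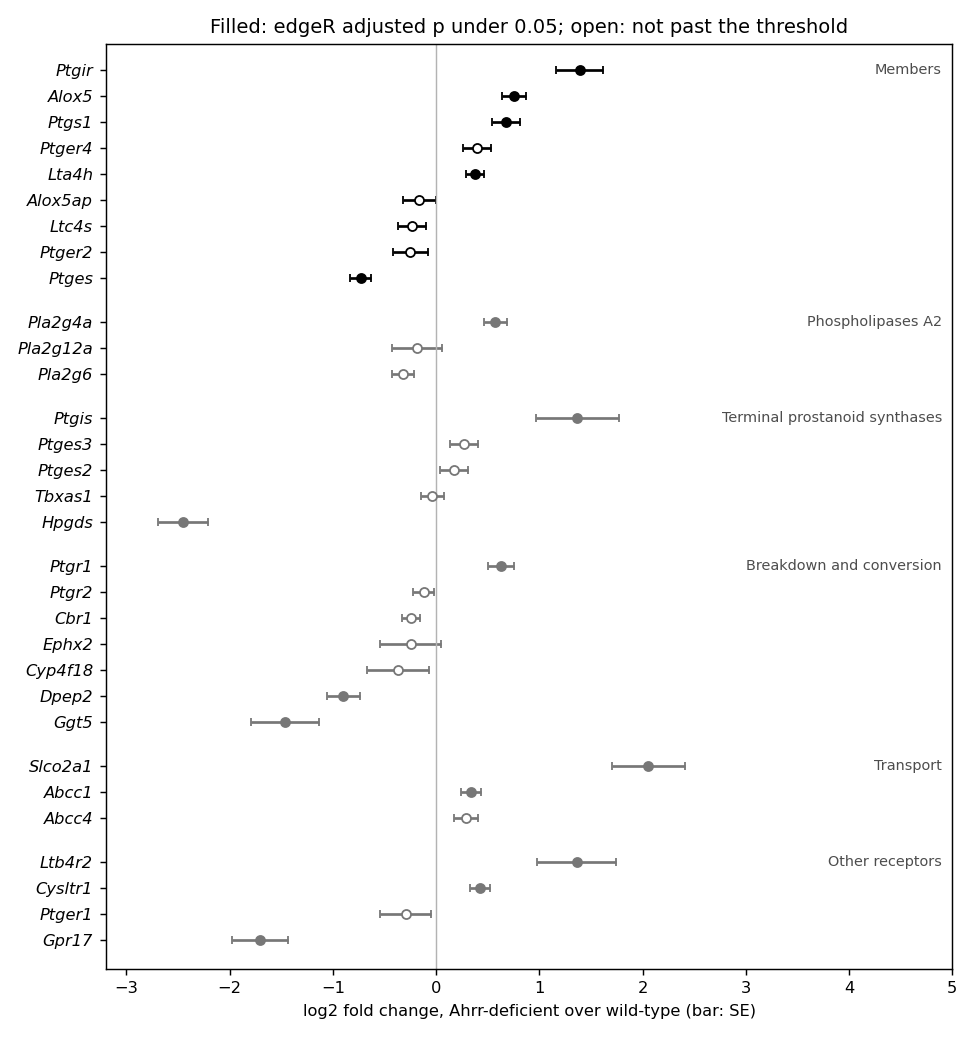
Log2 fold change of Ahrr-deficient over wild-type cells (horizontal axis) for the 9 tested members, in black, and 22 other tested pathway genes, in grey and grouped by role; bars are SE, and filled points are past an edgeR adjusted p of 0.05. The filled points lie on both sides of 0, from -2.45 for Hpgds to 2.06 for Slco2a1.

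Ptges had the smallest adjusted p of the members, and the genes with the most similar pattern were sought among tested genes with a mean of at least 50 counts. By the correlation of log2 CPM (with 1 added) over the 6 libraries, which share genotype and depth, these included Itm2c (Pearson 0.997), Sik1 (0.997), Gstm4 (0.997) and Thra (0.996). Each of these 4 was lower in Ahrr-deficient cells, with log2 fold changes between -1.94 for Sik1 and -0.59 for Itm2c. Over libraries that fall into 2 genotypes such values are a description and carry no test.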

How the data were processed

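RNA of 6 libraries was sequenced as single 75 bp reads from 100 ng of polyA RNA, per the labels' protocols. The submitters' processing notes name CASAVA 1.8.2, fastp 0.20.0, STAR 2.7.10b, SAMtools 1.16.1, R 4.3.1 and DESeq2 1.40.2 and the build mm10 (GRCm38); the annotation, the counting program and the use of strand are not given in the sources used here. The authors deposited raw counts for 53465 features without identifiers, and a normalized signal for 16111 genes with identifiers. The deposited signal is counts divided by 1 size factor per library: 100% of its values were whole multiples of 1 read (tolerance 1e-06 reads), and the reads recovered equalled the raw rows with at least 10 counts in total. Counts without an identifier, 0.0232% to 0.0511% of a library, stayed in the library totals. Replicate pairs differed (chi-square per degree of freedom 5.79 to 175), so each library counted once.

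Recovered counts were tested with edgeR 4.0.16 (quasi-likelihood, TMM factors 0.904 to 1.04, filterByExpr, genotype only, two-sided, Benjamini-Hochberg over 11408 genes, threshold 0.05) in R 4.3.3. SEs and 95% intervals come from the fold change and the F statistic. On simulated counts, 93.9% of genes changed 2-fold were recovered, over 11306 genes, and 5.47% of the genes called were false. The simulation gave every gene the same relative spread and changed few genes, so it does not give the share recovered in these data. Positions and exon lengths are from GENCODE mouse release 21 (16094 of 16111 identifiers matched), promoters from RefSeq. Alternatives were RLE and upper-quartile scaling, no filter, a minimum mean of 50 counts, limma-voom (limma 3.58.1), DESeq2 1.42.0, a replicate block, thinning to the smallest total, GC offsets (lowess span 0.3) with and without the block, and each library left out; the ratios and their alternatives were added after seeing the data. The members and lists were chosen with earlier results of these data known. Named genes are all members, other pathway genes past the threshold (Tbxas1 was chosen after its values were seen) and the 5 most similar to the member of smallest adjusted p, of which 1 is not reported here. Protein sequences were not used here.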

Additional observations from a re-analysis of the deposited data

How the results depend on the processing

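Over 16 alternative fits, 515 values of the genes named (some genes had too few counts for a fit, and Ptgs2 is given apart) were recomputed: 427 had the same sign and the same call, 85 lost a call, 1 gained one and 2 changed sign. Both changes of sign were in Tbxas1, never called, whose log2 fold change ran from -0.10 to 0.030 when a library was left out and was above 0 without wild-type replicate 3 or Ahrr-deficient replicate 2. The number of members past the threshold was 3 to 7, lowest without wild-type replicate 1 and highest without Ahrr-deficient replicate 1; Alox5, Ptges and Ptgir were called in all 16. The number over all tested genes was 2232, with values of 694, 965 and 1107 without wild-type replicates 1, 2 and 3 and 3857, 948 and 1175 without Ahrr-deficient replicates 1, 2 and 3. The number of other pathway genes past the threshold was 11, and 5 to 14 when a library was left out. It was 5 with a mean of at least 50 counts, where 15 of them were tested. Thinning to the smallest total gave 1230 genes in all and 4 other pathway genes. The replicate block gave 1390 genes in all and 6 other pathway genes, and the block with GC offsets 1276 and 6. Numbers 1 to 3 were treated as names of libraries only. Deviations of same-numbered libraries correlated at -0.17, 0.07 and 0.13, and only wild-type replicate 3 correlated best with its own number. With 3 libraries per group these values are too few to settle whether same-numbered libraries were paired. The block left 5 members called. Ggt5 was among the other pathway genes that lost their call with the block (edgeR adjusted p 0.0530, and 0.0617 with GC offsets). The motif TNGCGTG was in 4.10% of promoters, against 28.2% for GCGTG. Thinning moved the difference in the log2 ratio of Ptger4 to Ptger2 from 0.64 to 0.46, and that of Ptgir to Ptger4, 0.88, was 0.50 without Ahrr-deficient replicate 2 and 1.27 without Ahrr-deficient replicate 1. Fewer genes were tested under the higher minimum; for the other changes the cause was not tested. Among the pathway genes named, depth limits Ptgs2, Ptgis, Ltb4r2, Slco2a1 and Gpr17, each with libraries at 1 to 9 counts.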
